A study of Drosophila melanogaster with 6 samples.

Results

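The genes described here are 10 genes of the JAK/STAT pathway of Drosophila: the ligand genes upd1, upd2 and upd3, the receptor gene dome, the kinase gene hop, the transcription factor gene Stat92E, the inhibitors Socs36E and Ptp61F, and the induced genes vir-1 and Diedel. They were taken by name from a count table of 17558 gene identifiers, and all 10 were found and had enough reads to be tested. The adult males that overexpressed the long noncoding RNA CR11538 had the genotype Gal80ts; Tub> CR11538 (3 libraries), and the genotype of their controls was Gal80ts; Tub-Gal4/P{CaryP}attP40 (3 libraries). Flies of both groups had been injected with the bacterium M. luteus 12 h before RNA was taken. The methods describe the flies as a few days old, and both groups carry the Tub-Gal4 driver and its temperature-sensitive repressor Gal80ts, which were shifted to a warm incubator to switch the transgene on. The tubulin promoter is active in nearly all tissues, the transgene sits at 1 landing site on chromosome 2L that is empty in the controls, and no uninfected or unshifted library is part of the comparison. The methods state in general terms that the data came from 3 independent biological replicates. Neither they nor the labels say how the flies of each library were pooled or whether they came from separate crosses. The p-values therefore measure the spread between these libraries, and what that spread holds beyond this statement is not known.

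The JAK/STAT pathway is the cytokine pathway of the fly. The secreted Unpaired proteins bind the receptor Domeless, which activates the Janus kinase Hopscotch, and Hopscotch phosphorylates Stat92E, which then enters the nucleus and switches on genes that include Socs36E and the receptor gene dome itself. After septic injury, blood cells release Upd3 and the fat body answers with stress peptides such as the Turandots, while in the testis Upd1 made by the hub keeps stem cells in place.

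Library totals ran from 18688260 to 19652500 counts in the CR11538-overexpressing flies and from 17040432 to 19237306 in the controls. lncRNA-CR11538 had 2291, 3358 and 3312 raw counts in the CR11538-overexpressing libraries, against 5, 2 and 5 in the controls (log2 fold change 9.47). The male-specific RNA roX1 was read at 6093 to 6844 normalized counts in the CR11538-overexpressing libraries and 7458 to 8285 in the controls. By the test described below roX1 was lower (log2 fold change -0.30), while the male-specific RNA roX2 did not pass (0.25). The female genes Cp36, Cp38 and Yp1 had no more than 3, 1 and 6 raw counts in any library, although Cp15 and Cp18 had 41.6 to 49.4 normalized counts in the CR11538-overexpressing libraries and 28.5 to 43.9 in the controls. The female gene Yp2 had 1, 23 and 6 raw counts in the CR11538-overexpressing libraries, against 7, 4 and 4 in the controls. Among libraries of 1 genotype, CR11538-overexpressing replicates 1 and 3 differed most (chi-square per gene of 35.6, against 6.95 to 18.1 for the other pairs), and a second principal component with 11.4% of the variance set them apart. Counts of 0 or a few are limited by counting error, and the intervals on single counts given here cover that error only.

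In the CR11538-overexpressing flies Diedel was 12.1-fold higher, upd1 was 1.44-fold higher and hop was 0.840 times the control level, while the other 7 genes did not pass the test. Diedel encodes a small secreted protein that acts on the immune response, and relatives of it are carried by insect viruses. Higher and lower mean a Benjamini-Hochberg adjusted p under 0.05 in edgeR's quasi-likelihood test over 13159 genes, after TMM scaling of the libraries. By this rule 2 of the 10 genes were higher, where 15.0% of all tested genes were, and 1 was lower, where 14.2% were. Diedel also exceeded a 2-fold change, as did 3.43% of all tested genes in that direction. The libraries of the genotypes did not overlap for upd1 and Diedel, both higher (21.8% of all tested genes), nor for hop and vir-1, both lower (23.3%). The median log2 fold change was 0.12 over the 10 genes and -0.01 over all tested genes. With 10 genes, these shares were near those of the whole table.

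**Figure D1:**
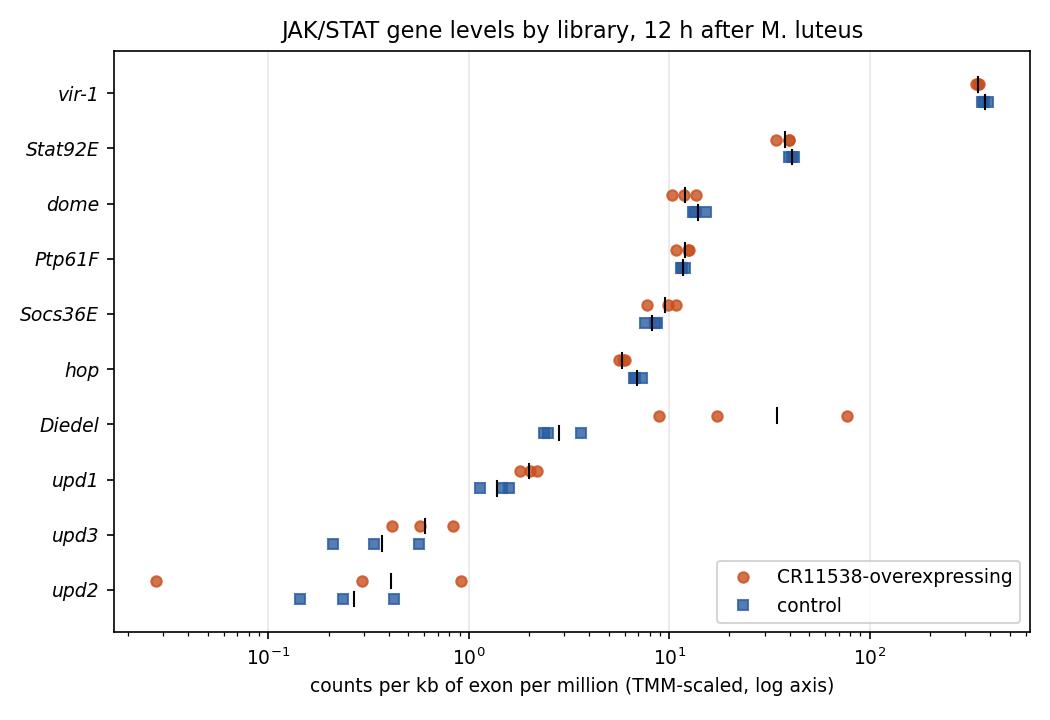
Level of each gene in CPM per kb of exon (horizontal log axis), with circles for the 3 CR11538-overexpressing libraries and squares for the 3 control libraries, and a black bar at each group mean. The circles of Diedel run from 8.88 to 77.5 and lie to the right of its squares at 2.37 to 3.65, while circles and squares of Stat92E and Ptp61F overlap.

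Set against exon length, as counts per kb of exon per 1e6 counts (CPM per kb), the levels of the 10 genes differed widely. In the CR11538-overexpressing flies vir-1 stood at 346 ± 4.47 CPM per kb (SD, n = 3), followed by Stat92E at 37.9 ± 3.20, Diedel at 34.6 ± 37.4, Ptp61F at 11.9 ± 0.940, dome at 11.9 ± 1.69, Socs36E at 9.51 ± 1.57, hop at 5.84 ± 0.204 and upd1 at 2.01 ± 0.195. In the control flies the order was vir-1 at 376 ± 13.3, Stat92E at 40.8 ± 1.12, dome at 14.0 ± 1.12, Ptp61F at 11.7 ± 0.307, Socs36E at 8.24 ± 0.620, hop at 6.95 ± 0.351, Diedel at 2.83 ± 0.709 and upd1 at 1.39 ± 0.230 (SD, n = 3). The ligands upd3 and upd2 were last in both genotypes, at 0.608 ± 0.213 and 0.411 ± 0.454 in the CR11538-overexpressing flies and at 0.371 ± 0.180 and 0.268 ± 0.142 in the controls. In the controls every gene was apart from its neighbour in this order, except upd3 and upd2, whose libraries overlapped. In the CR11538-overexpressing flies the libraries of Stat92E and Diedel overlapped, as did those of Diedel with Ptp61F, Ptp61F with dome, dome with Socs36E, and upd3 with upd2. By group mean, Diedel stood above 80.1% of the tested genes with a known exon length in the CR11538-overexpressing flies and above 21.5% of them in the controls, and no other of the 10 genes moved by as much as 5 percentage points. CR11538-overexpressing replicate 1 set much of that mean, with 77.5 CPM per kb of Diedel against 8.89 and 17.3 in replicates 2 and 3.

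The 3 ligand genes lie together on the X chromosome of dm6, from 18240654 (upd2) to 18309291 (upd1), a span of 68.6 kb. upd1 encodes the ligand known from the embryo and the testis hub. It had 106, 129 and 118 normalized counts in the CR11538-overexpressing libraries, against 92.6, 85.4 and 66.6 in the control libraries. Every CR11538-overexpressing library was above every control library. Its log2 fold change was 0.52 (standard error 0.17, 95% interval 0.15 to 0.90, adjusted p = 0.0410). This call sat near the threshold. DESeq2 gave an adjusted p of 0.0603 and scaling by library size alone 0.0564. The adjusted p was 0.132 without CR11538-overexpressing replicate 2, 0.0682 without CR11538-overexpressing replicate 3, and 0.0525, 0.0892 and 0.115 without control replicates 1, 2 and 3 (range over all alternatives but the 2-fold test 0.0345 to 0.132).

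upd3 encodes the ligand that blood cells and gut release after injury or infection. It had 17.3, 23.8 and 34.9 normalized counts in the CR11538-overexpressing libraries, against 8.78, 23.6 and 14.0 in the controls. Control replicate 2 lay within the range of the CR11538-overexpressing libraries, so the groups overlapped. upd3 had a log2 fold change of 0.71 with a 95% interval of -0.22 to 1.65 (adjusted p = 0.228). upd2, which encodes a ligand made in the fat body that reports the fed state to the brain, was the most variable of the 10 genes. It had 1, 11 and 35 raw counts in the CR11538-overexpressing libraries, against 9, 16 and 5 in the controls. The CR11538-overexpressing flies thus held both the lowest and the highest library. The exact Poisson 95% intervals of the 3 CR11538-overexpressing counts (0.0253 to 5.57, 5.49 to 19.7 and 24.4 to 48.7) leave the first and the last of them apart. Its log2 fold change was 0.61 (95% interval -1.19 to 2.43, adjusted p = 0.607), but -0.73 without CR11538-overexpressing replicate 3 and 1.15 without replicate 1.

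The receptor and kinase genes are X-linked as well, and hop was lower in the CR11538-overexpressing flies while dome did not pass. dome (dm6 X, 19676061 to 19683518, minus strand), whose product binds the Unpaired ligands, had 939.8, 1086 and 1249 normalized counts in the CR11538-overexpressing libraries, against 1229, 1394 and 1207 in the controls. CR11538-overexpressing replicate 3 lay among the controls, and replicate 1 was the lowest of all 6 libraries. dome had a log2 fold change of -0.23 (95% interval -0.46 to 0.01, adjusted p = 0.132). Without CR11538-overexpressing replicate 3 it was -0.34 with an adjusted p of 0.0162 (range over all alternatives but the 2-fold test 0.0162 to 0.373).

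hop (dm6 X, 11360930 to 11368098, minus strand), the only Janus kinase of the fly, had 559, 570.3 and 533 normalized counts in the CR11538-overexpressing libraries, against 637, 697 and 643 in the controls. The groups did not overlap, and the libraries within each were close together. hop fell by 0.25 on the log2 scale (standard error 0.07, 95% interval -0.41 to -0.09, adjusted p = 0.0281). As with upd1, the call was near the threshold. DESeq2 gave an adjusted p of 0.0757. Leaving out CR11538-overexpressing replicate 2 or 3 gave 0.0586 or 0.0719, and leaving out control replicate 1, 2 or 3 gave 0.0614, 0.106 or 0.0539 (range over all alternatives but the 2-fold test 0.0303 to 0.106). The log2 fold change itself stayed between -0.28 and -0.21 under every alternative run.

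Stat92E, the transcription factor of the pathway, lies on chromosome 3R (20535323 to 20552311, minus strand, 11 annotated transcripts). It had 3876, 3881 and 3337 normalized counts in the CR11538-overexpressing libraries, against 3999, 4090.0 and 3873 in the controls. Control replicate 3 fell just below CR11538-overexpressing replicates 1 and 2, so the groups overlapped. The log2 fold change of -0.11 had a 95% interval of -0.28 to 0.06 (adjusted p = 0.310), an interval that does not reach a 2-fold change in either direction. The activity of Stat92E depends on phosphorylation, which was not measured here.

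**Figure D2:**
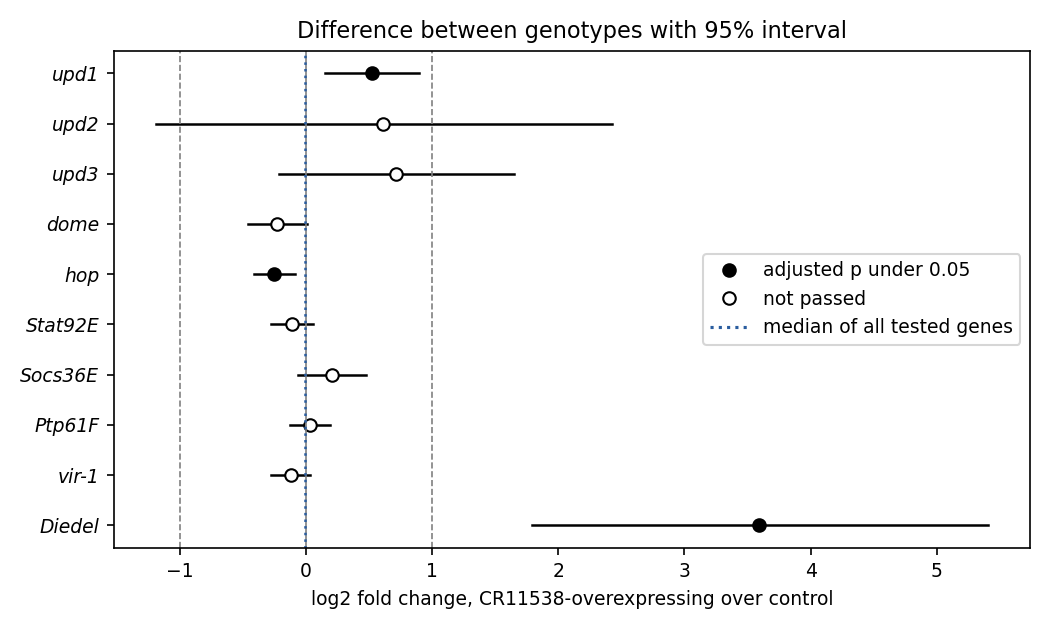
Log2 fold change of each gene, CR11538-overexpressing over control (n = 3 each), with its 95% interval from edgeR's quasi-likelihood fit. Filled circles have an adjusted p under 0.05, dashed lines mark a 2-fold change and the dotted line the median of all tested genes (-0.01). Diedel at 3.59 stands apart, upd1 (0.52) and hop (-0.25) lie on either side of 0, and upd2 has the widest interval of the genes near 0.

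Of the inhibitors, Socs36E encodes a feedback protein that Stat92E itself switches on, and its transcript is often used to read the output of the pathway. It had 512, 648 and 715 normalized counts in the CR11538-overexpressing libraries, against 572, 556 and 495 in the controls. CR11538-overexpressing replicates 2 and 3 were above every control, while replicate 1 lay between control replicates 2 and 3. Socs36E had a log2 fold change of 0.21 (95% interval -0.06 to 0.48, adjusted p = 0.226). Without CR11538-overexpressing replicate 1 it was 0.33 with an adjusted p of 0.0201 (range over all alternatives but the 2-fold test 0.0201 to 0.558), and without CR11538-overexpressing replicate 3 it was 0.10. Ptp61F encodes a phosphatase that removes the activating phosphates from Hopscotch and Stat92E. It had 1236, 1416 and 1426 normalized counts in the CR11538-overexpressing libraries, against 1316, 1368 and 1301 in the controls. The control libraries lay inside the range of the others. Its log2 fold change of 0.03 (95% interval -0.12 to 0.19, adjusted p = 0.761) was the smallest in size of the 10. Ptp61F spans 1342493 to 1475257 on chromosome 3L and holds other genes in its introns, but none of the 10 genes shares exonic sequence with another gene in the counts.

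The 2 induced genes behaved differently. vir-1, a gene known for its induction by a virus through JAK/STAT, was the most abundant of the 10, above 97.5% of the tested genes by level per kb in the CR11538-overexpressing flies and above 97.8% in the controls. It had 13540, 13892 and 13753 normalized counts in the CR11538-overexpressing libraries, against 14448, 15497 and 14855 in the controls. All CR11538-overexpressing libraries were below all controls, but by a log2 fold change of only -0.12 (95% interval -0.27 to 0.03), which did not pass the test (adjusted p = 0.208).

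Diedel (dm6 3R, 29493852 to 29494267, plus strand, 1 exon of 416 bp) had 605, 69.3 and 135 normalized counts in the CR11538-overexpressing libraries, against 18.5, 28.5 and 19.3 in the controls. The lowest CR11538-overexpressing library was 2.43 times the highest control, so the groups were well apart. Within the CR11538-overexpressing flies the highest library was 8.73 times the lowest, and within the controls 1.54 times. Diedel had a log2 fold change of 3.59 (standard error 0.81, 95% interval 1.79 to 5.41, adjusted p = 0.00958). CR11538-overexpressing replicate 1 alone set much of its size. Without that library the log2 fold change was 2.20, a 4.59-fold rise, with an adjusted p of 0.000762 (range over all alternatives 0.000762 to 0.148). The highest value of that range came from a test against a 2-fold change, which Diedel did not pass.

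**Figure D3:**
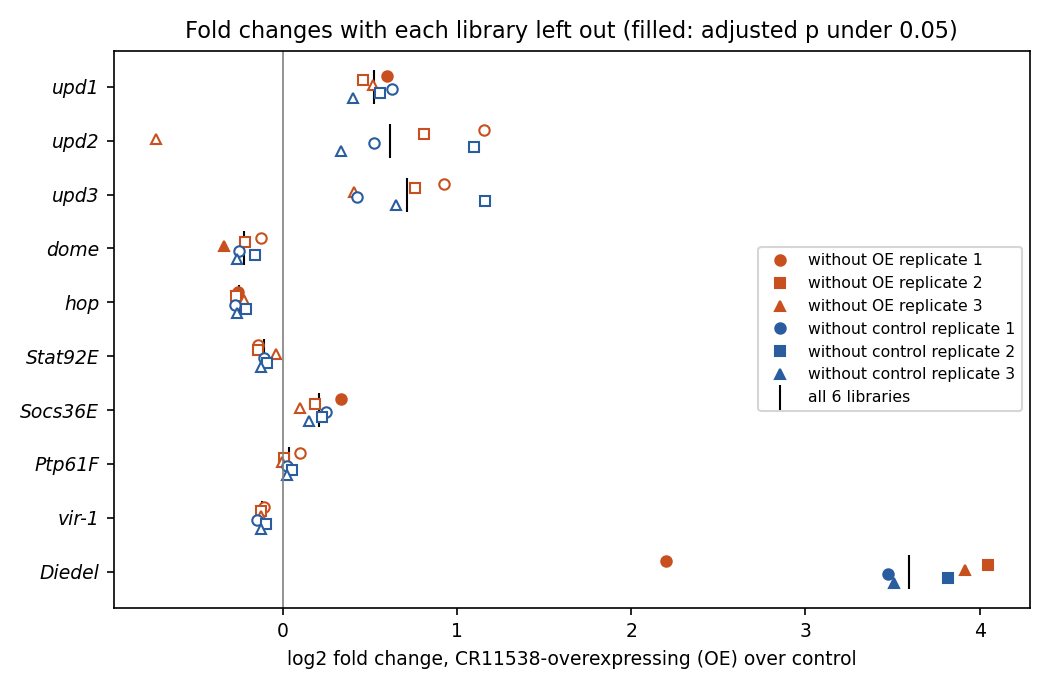
Log2 fold change of each gene with 1 library left out at a time (circles, squares and triangles for replicates 1, 2 and 3 of the CR11538-overexpressing flies in orange and of the controls in blue), with a black bar for all 6 libraries and filled symbols for an adjusted p under 0.05. Diedel stayed filled throughout and dropped to 2.20 without CR11538-overexpressing replicate 1, upd1 and hop were each filled in 1 of 6, Socs36E was filled only without CR11538-overexpressing replicate 1 and dome only without replicate 3.

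Among the other genes CR11538-overexpressing replicate 1 was more often low than high. It was the lowest library of its genotype for 7 of the 10 genes (upd1, upd2, upd3, dome, Socs36E, Ptp61F and vir-1), as it was for 34.0% of all tested genes. It was the highest for Diedel only, as for 40.2% of all tested genes. Some of the gaps were small. Across the CR11538-overexpressing libraries the highest was 1.03 times the lowest for vir-1, 1.15 times for Ptp61F and 1.22 times for upd1. For Stat92E replicate 1 (3876 normalized counts) was close to the highest library (3881), and for hop it lay in the middle. Against the mean of CR11538-overexpressing replicates 2 and 3, replicate 1 held 0.0455 times the upd2, 0.590 times the upd3 and 0.752 times the Socs36E counts, but 5.93 times the Diedel counts. The library with the most Diedel was therefore the one with the least of the ligands and of Socs36E among the CR11538-overexpressing flies. That inverse order rested on replicate 1 alone, where upd2 had 1 read and upd3 had 17. From replicate 2 to replicate 3 Diedel rose from 69.3 to 135 normalized counts. Over the same step upd2, upd3 and Socs36E rose as well, while upd1 fell.

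The genes nearest to Diedel over the 6 libraries, by the root mean square difference of centred log2 counts among 11244 genes, were TotM (0.39), TotX (0.63), Lsp1gamma (0.74), TotA (0.76) and Nplp3 (0.80). TotM, TotX and TotA encode Turandot stress peptides, and Lsp1gamma encodes a larval serum protein. TotM had 1563, 331 and 492 normalized counts in the CR11538-overexpressing libraries, against 116, 94.3 and 73.0 in the controls, with replicate 1 the highest. Because TotM, TotX and TotA were picked for their nearness to Diedel, sharing its pattern over the libraries follows from that choice. TotA, TotC, TotM and TotX had log2 fold changes of 2.79, 3.96, 3.06 and 3.02 (adjusted p of 0.00254, 0.00158, 0.00341 and 0.00107), and replicate 1 held 2.70 to 3.80 times the mean of CR11538-overexpressing replicates 2 and 3. Without that library the changes were 4.35-fold for TotA (6.94-fold with it), 9.58-fold for TotC (15.5-fold), 4.34-fold for TotM (8.36-fold) and 5.17-fold for TotX (8.08-fold), and TotC was 28.8-fold higher without control replicate 1. Turandot genes are close relatives whose reads may be shared.

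**Figure D4:**
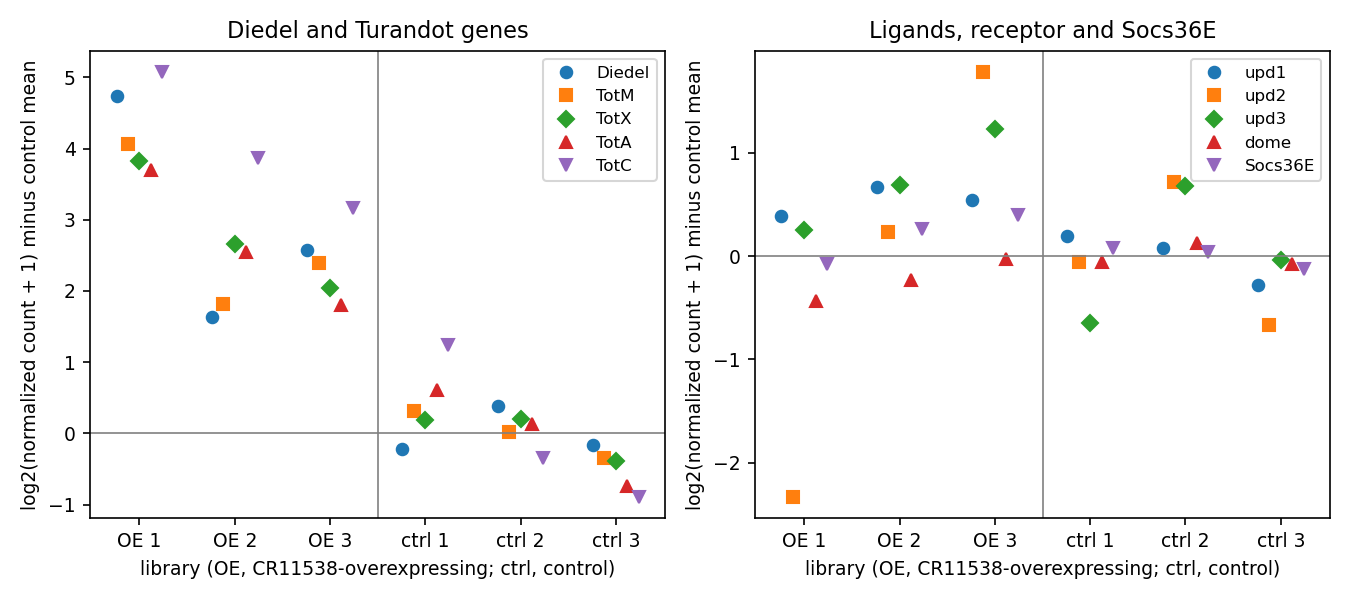
Log2 of the normalized count plus 1, minus the mean of the control libraries, in each library (OE, CR11538-overexpressing; ctrl, control), for Diedel with 4 Turandot genes on the left and for the ligands, dome and Socs36E on the right. On the left every gene is highest in CR11538-overexpressing replicate 1, which has 605 normalized counts of Diedel, and on the right that library is the lowest of its genotype for every gene, with 1 read of upd2. TotM, TotX and TotA were picked for their nearness to Diedel over these libraries.

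Tissue markers were counted in the same way, where 15.0% of all tested genes were higher and 14.2% lower. Of 7 blood cell genes, 4 were higher (Hml, NimC1, Pxn and Ppn) and none was lower, and their summed level was 14313 to 18140 normalized counts in the CR11538-overexpressing libraries and 10752 to 11280 in the controls. The blood cell gene He was nearly unread, with 1 to 6 counts a library, while srp and eater did not pass. Of 4 fat body genes, 2 were higher (apolpp and Lsd-1), with sums of 37856 to 70493 against 30922 to 40108. The libraries of the genotypes overlapped for apolpp, and fon and bmm did not pass (log2 fold changes of -0.15 and -0.06). All 4 flight muscle genes (Act88F, fln, Mhc and TpnC4) were higher, with sums of 74010 to 137064 in the CR11538-overexpressing libraries and 32360 to 43207 in the controls. None of the testis genes passed, and their sums overlapped (20151 to 23002 against 19524 to 21432). Of 5 gut genes 1 was higher (betaTry) and 1 lower (pros), and of 4 accessory gland genes 2 were higher (Acp36DE and Acp62F). For the blood cell, fat body, flight muscle, gut, testis and accessory gland lists alike, CR11538-overexpressing replicate 1 had the highest sum of its genotype. These sums follow the most abundant genes, such as apolpp with 54420 of the 70493 counts of fat body genes in that library. The blood cell sum was nearly the same in replicates 1 and 2 (18140 and 18012). Markers that were not highest in replicate 1 included Hml, eater, pros, bmm and the testis gene bam, as well as the nearly unread He and Mst84Da. The part of these tissues in the difference of Diedel or upd1 was not tested, and in RNA of adult flies a change in the number of cells of a type and a change in RNA per cell cannot be told apart.

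Of 10 other components of the pathway (et, Socs16D, Socs44A, Su(var)2-10, ken, Stam, Hrs, asrij, BRWD3 and E(bx)), 1 was lower, none was higher and 9 did not pass, with a median log2 fold change of -0.07. Over all tested genes 14.2% were lower and 15.0% higher, so these counts are near the background. With edgeR and with DESeq2 the count of higher genes was 0 at an unadjusted p under 0.05 as well. The gene that fell was Socs16D, a relative of Socs36E, with 1122, 1156 and 1158 normalized counts in the CR11538-overexpressing libraries, against 1342, 1473 and 1285 in the controls (log2 fold change -0.26, adjusted p = 0.0187). It did not pass without CR11538-overexpressing replicate 2 (0.0544), control replicate 1 (0.0514) or control replicate 2 (0.0724), within a range over all alternatives but the 2-fold test of 0.0185 to 0.0724. et, a short receptor that lies 169 bp from dome and dampens signalling, had 386, 268 and 210.1 normalized counts in the CR11538-overexpressing libraries, against 382, 366 and 322 in the controls. CR11538-overexpressing replicate 1 lay above every control and the other 2 below them, which is the reverse of their order for dome. The log2 fold change of et was -0.31 (adjusted p = 0.247), and -0.58 with an adjusted p of 0.00757 without CR11538-overexpressing replicate 1 (range over all alternatives but the 2-fold test 0.00757 to 0.548).

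Genes reported to depend on Stat92E in some fly tissue went both ways. Of 15, 13 were tested, of which 5 were higher, 1 was lower and 7 did not pass (TotB, Tep2, zfh1, chinmo, Mmp1, CycD and Cdk4), where 15.0% of all tested genes were higher and 14.2% lower. The 5 were the 4 Turandot genes above and Tep1, a thioester protein gene linked to JAK/STAT in larvae. Tep1 had 175, 333 and 163 normalized counts in the CR11538-overexpressing libraries, against 63.4, 70.7 and 62.3 in the controls (log2 fold change 1.77, adjusted p = 0.00169). Unlike Diedel, it was highest in CR11538-overexpressing replicate 2. Its relative Tep4 had 5005, 5883 and 6312 normalized counts in the CR11538-overexpressing libraries, against 8975, 9786 and 9073 in the controls, and fell by 0.69 on the log2 scale (adjusted p = 0.000728). The 2 thioester genes therefore moved in opposite directions. TotZ was read 3, 6 and 6 times in the CR11538-overexpressing libraries and not at all in the controls, and TotF was below the filter. Of the relatives of Diedel, Diedel2 was not read. Diedel3 had 1195, 888 and 666 normalized counts in the CR11538-overexpressing libraries, against 734, 565 and 628 in the controls, and did not pass (log2 fold change 0.51, adjusted p = 0.0640). DESeq2 called it higher (0.0174), as did scaling by library size alone (0.0412) and the fit without CR11538-overexpressing replicate 3 (log2 fold change 0.69, adjusted p = 0.00219), within a range over all alternatives but the 2-fold test of 0.00219 to 0.211.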

How the data were processed

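Poly(A) RNA was sequenced from both ends. The authors deposited raw counts per gene and replicate, made by featureCounts 1.5.0-p3 from HISAT2 2.0.5 alignments (genome dm6). No source used here gives the strand setting or the annotation release, which bear on overlapping genes. Groups came from the sample titles. Of 17558 identifiers, 17252 matched the Ensembl annotation of dm6 used for names, positions and exon lengths. The marker genes FASN1, esg, Mex1, vas and nos were not matched and are not analysed here.

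The counts were compared with edgeR 4.0.16 (R 4.3.3): filterByExpr kept 13159 genes, scaling was by TMM, and genotype was the only term of the quasi-likelihood fit (4 residual degrees of freedom). Normalized counts are TMM-scaled to the mean library. Standard errors and 95% intervals are without edgeR's shrinkage of fold changes, which the printed fold changes include. The fit was tested on simulated counts. The members, lists and tests were chosen with earlier results of these data known. Named were all members, genes of the pathway, STAT-dependent and Diedel-relative lists at an adjusted p under 0.05, and the 5 genes with at least 50 normalized counts nearest to each member past both thresholds. et, Diedel3, TotZ and the tissue and sex marker genes were named after their values were seen. Alternatives were DESeq2 1.42.0, other scalings and filters, a replicate block, leaving out single libraries and a test against a 2-fold change. Python 3.11.15 and matplotlib 3.10.9 drew the figures.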

Additional observations from a re-analysis of the deposited data

How the results depend on the processing

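Of the 10 genes, 2 were higher and 1 lower with all libraries. DESeq2 called 1 higher and 0 lower (2 and 1 at an unadjusted p under 0.05), scaling by library size alone called 1 higher, and a test against a 2-fold change called 0 in either direction (1 and 0 unadjusted). With 1 library left out, 1 to 3 were higher and 0 to 1 lower with edgeR (2 to 3 and 1 to 2 unadjusted). Over all tested genes, 1974 were higher and 1870 lower, 186 and 24 against a 2-fold change, and 1193 to 2024 and 1146 to 1889 with 1 library left out. The lowest of these counts, 1193 and 1146, came without control replicate 2, and 1255 were higher without control replicate 1. With 1 library left out, upd2 ranged from -0.73 to 1.15 and Ptp61F from -0.0045 to 0.10, both reversed without CR11538-overexpressing replicate 3; the cause was not tested. The gene called lower without that library was dome, not hop. Tep1 (0.124), Tep4 and TotM (0.0541) did not pass the 2-fold test. upd2 and upd3 could not be tested with at least 10 counts in every library. Rescaling moved the median log2 fold change of all genes by less than 0.1.

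Replicate numbers are shared between the genotypes, but nothing in the labels pairs them, and same-numbered libraries deviated together weakly (r across genes of 0.126, 0.0336 and 0.0654 for numbers 1, 2 and 3), so the replicate block is not part of the main comparison. Control replicate 2 was nearer to CR11538-overexpressing replicate 3 than to its own number. With the block, 2 genes of the 10 were higher and 1 lower, and 2061 and 1924 of all genes were. Diedel had a log2 fold change of 3.27, and Diedel3 passed with an adjusted p of 0.0123. The weak r holds across genes and not for every gene. TotA and TotC fell from replicate 1 to 2 to 3 in both genotypes, while TotM and TotX did not. With the block in edgeR's test the adjusted p was 1.59e-06 for TotA and 1.11e-08 for TotC (0.00254 and 0.00158 without it). For TotM and TotX it was 0.000146 and 2.24e-05 with the block.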

Other observations

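The make-up of the ligand pool differed between libraries of 1 genotype. Summed per kb, the 3 ligand genes gave 2.25, 3.06 and 3.77 CPM per kb in CR11538-overexpressing replicates 1, 2 and 3, against 2.03, 2.45 and 1.62 in the controls, so the groups overlapped. upd1 made up 80.3, 71.8 and 53.5% of these sums in the CR11538-overexpressing libraries, against 78.0, 59.6 and 70.3% in the controls. upd2 made up 1.22, 9.58 and 24.2%, against 11.7, 17.3 and 8.95%. These shares rested on few reads. The 3 genes together had 122, 165 and 193 raw counts in the CR11538-overexpressing libraries, against 113, 127 and 80 in the controls. The share of 1.22% was 1 read of upd2, so counting error is part of these differences.

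The spread between libraries of the same genotype also set the genes apart. Among CR11538-overexpressing libraries the SD of log2 counts was 2.08 for upd2 and 1.59 for Diedel, above over 99.9% of all tested genes for both, while vir-1 had 0.02 and exceeded 2.28% of them. In the controls the SD was 0.70 for upd2, 0.33 for Diedel and 0.05 for vir-1, above 97.7, 89.1 and 18.4% of all tested genes. The genes differ in level, and counting error adds to the SD of a gene with few reads, such as upd2 with 1 to 35 raw counts a library.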
